A study of Mus musculus with 9 samples.

Results

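The 9 genes described here encode transcription factors that direct blood progenitors into the myeloid lineages: the 5 C/EBP genes Cebpa, Cebpb, Cebpd, Cebpe and Cebpg, and Spi1 (PU.1), Irf8, Gfi1 and Klf4. They were taken by name from a count table with 24060 named genes, and each of the 9 passed the filter on low counts that left 13355 genes for testing. Counts came from RNA-seq of LSKs, the Lin-Sca1+Kit+ cells of mouse bone marrow, in which stem cells and early progenitors of the blood are found.

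Control donors were C57BL/6 mice (3 libraries). NHD13 donors carried the NUP98-HOXD13 fusion under the Vav promoter, which is active throughout the blood system and models a myelodysplastic syndrome (2 libraries). NHD13/MSI2 donors carried the same fusion together with KH2-Col1A1-tet-on-MSI2/ROSA26-rTTA, which drives the RNA-binding protein MSI2 while doxycycline is given (4 libraries). In all 3 groups the marrow had been transplanted with CD45.1+ helper cells into lethally irradiated recipients, all samples share the C57BL/6 strain label and an age label of 4 months, and RNA was taken after 3 months of doxycycline. Transplanted marrow of male or female donors was used, and the sources do not say whether each library came from its own mouse, so p-values measure only the spread between these libraries.

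Library totals ran from 19242153 to 23013493 counts, so that the limit a count of 0 allows (3 counts) was 0.13 to 0.156 CPM (counts scaled to library size), for counting error only. Several libraries stood apart or went against a label. Control replicates 1 and 3 had 21712 and 21664 counts of Xist and control replicate 2 had 49. Xist had 5 and 3 counts in NHD13 and 10, 3, 42 and 11 in NHD13/MSI2. High Xist counts thus stood only in control, and a part of the sex of the mice in the comparisons over control was not tested. Within the control group the deposited name reads bulk for replicate 1, MPP for replicate 2 and HSC for replicate 3. The sample titles give only control and a replicate number, and the comparisons over control treat the 3 libraries as replicates. Whether these libraries held different sorted cells was not tested. Hoxd13, part of the fusion, had 0 counts in each control library and 13 to 25 in the others, whereas Msi2 was not above the control range under the NHD13/MSI2 label (88.0, 77.1, 82.8 and 241 CPM in replicates 1 to 4, against 223 to 316 CPM in control). In NHD13 Msi2 had 139 and 111 CPM, so that replicates 1 to 3 of NHD13/MSI2 lay below both NHD13 libraries and replicate 4 above both. Whether reads of the MSI2 transgene count towards Msi2 is not given in the sources used here, so directions for NHD13/MSI2 rest on the label, and the name stands below for the libraries labelled so. NHD13/MSI2 replicate 4 had chi-square values per gene of 382 to 409 against the other libraries of its group, where the pairs among replicates 1 to 3 had 18.2 to 31.3, and results that it changes are given with and without it. The gate genes Kit and Ly6a (Sca1) were detected in every library, at mean levels of 1938, 1526 and 1141 CPM for Kit and 85.8, 58.7 and 260 CPM for Ly6a in control, NHD13 and NHD13/MSI2.

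C/EBP proteins are basic leucine zipper factors that bind DNA as dimers. C/EBPα is required for the step from common myeloid progenitors to granulocyte and monocyte progenitors, C/EBPβ and C/EBPδ act in emergency granulopoiesis and in macrophages, C/EBPε in late granulocyte maturation, and C/EBPγ lacks a strong activation domain and pairs with the others. PU.1, an ETS factor, opens myeloid enhancers and works with IRF8, which favours monocytes and dendritic cells over granulocytes. GFI1 is a zinc finger repressor that favours granulocytes, and KLF4 is a zinc finger factor of monocytes.

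Of the 9 factors, Irf8 and Cebpa rose in NHD13/MSI2 over control, and no factor passed the threshold in NHD13/MSI2 over NHD13 or in NHD13 over control. Counts were fitted with edgeR's quasi-likelihood method over all 9 libraries, with a Benjamini-Hochberg adjusted p under 0.01 over all 13355 genes as the threshold. In NHD13/MSI2 over control 2 of 9 factors passed, both higher, where 4.49% of all genes tested were called higher and 11.0% in either direction. In the joint test of the 3 groups the same factors, Cebpa and Irf8, passed (2 of 9, against 8.90% of all genes). In NHD13/MSI2 over NHD13 the count was 0 (3.17% of all genes were called), with 3 factors at an unadjusted p under 0.05 and 1, Cebpa, called by DESeq2 (adjusted p = 0.00759, where DESeq2 called 9.47% of all genes). In NHD13 over control it was 0 as well (1.03% of all genes), with 2 factors at an unadjusted p under 0.05 and 1, Irf8, called by DESeq2 (adjusted p = 4.38e-07, where DESeq2 called 4.12%). The median log2 fold change of the 9 was 0.64 in NHD13 over control (0.017 over all genes tested), 0.71 in NHD13/MSI2 over control (−0.011) and 0.66 against NHD13 (−0.028). Separation without overlap, in CPM scaled by TMM, was seen for 3 of 9 factors in NHD13/MSI2 over NHD13 (Cebpa, Cebpg and Irf8, all higher, where 29.9% of all genes were separated in either direction). It was seen for 3 in NHD13/MSI2 over control (Cebpa, Cebpd and Irf8, all higher, against 35.7% of all genes), and for 5 in NHD13 over control (Cebpa, Cebpb, Spi1 and Irf8 higher and Cebpg lower, against 37.4%). The 2 comparisons over control share the control libraries, and both comparisons of NHD13/MSI2 share its libraries. The share of all genes with no overlap between all 3 groups was not computed, so such statements below only describe the gene named.

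**Figure D1:**
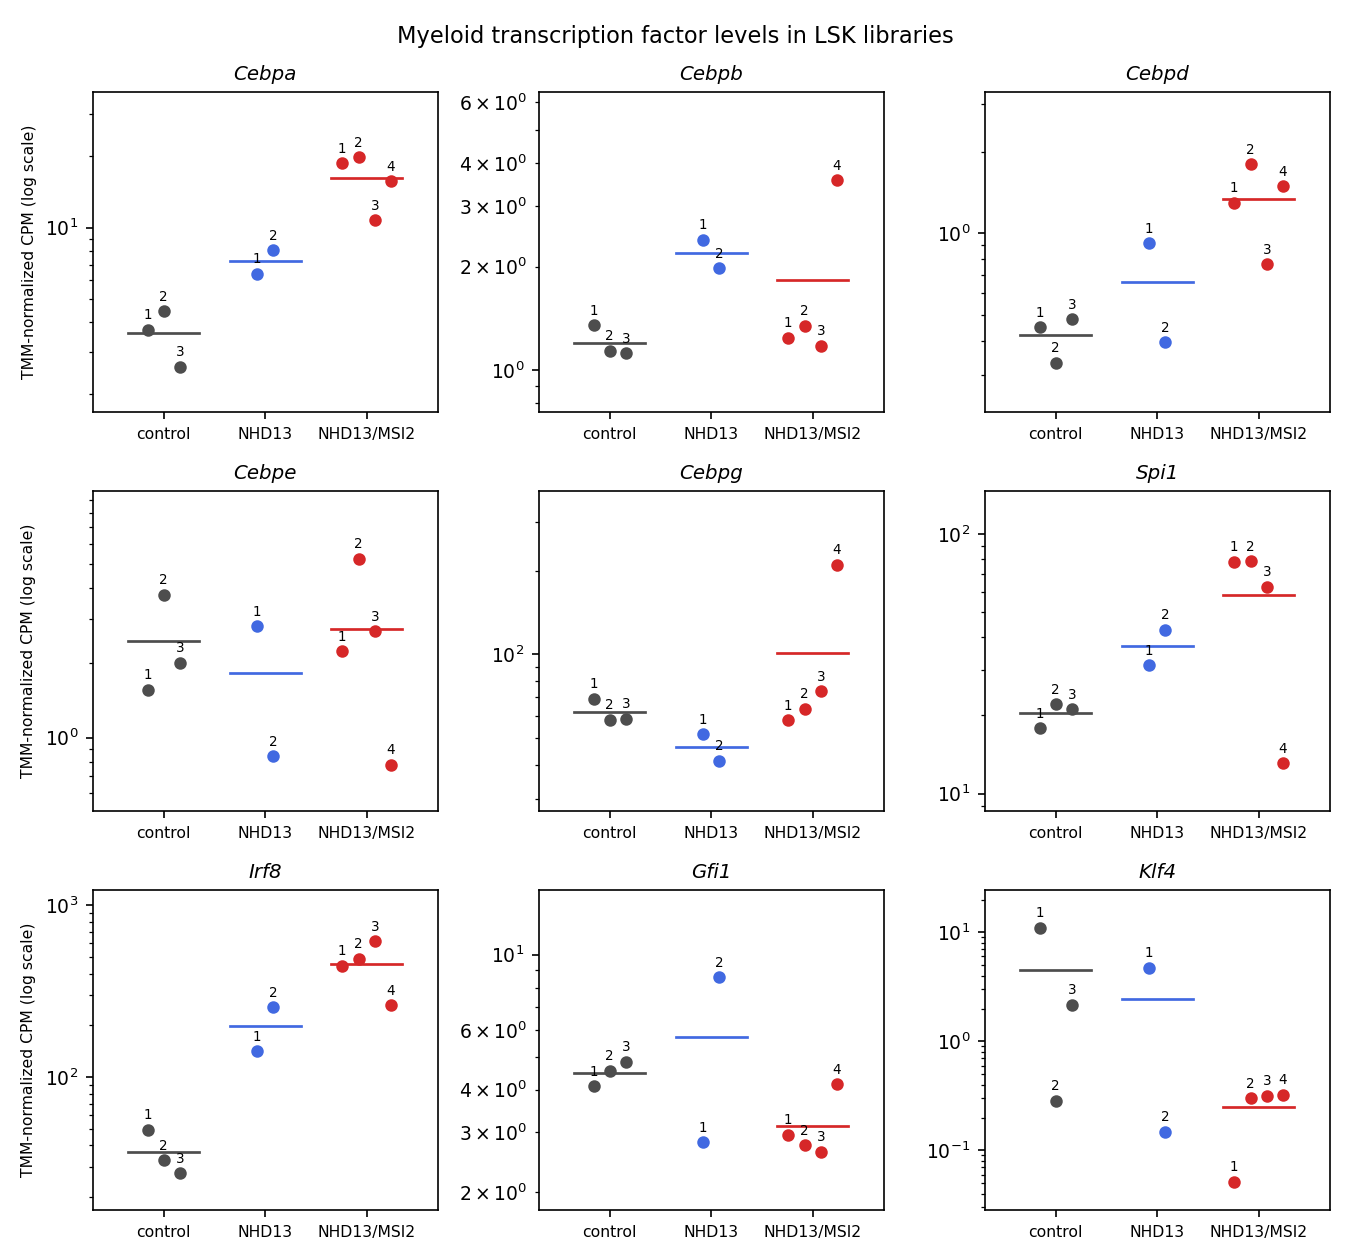
Level of each of the 9 factors in every library, as TMM-normalized CPM on log axes that differ between panels. Each point is a library with its replicate number, and the line is the group mean. Irf8 and Cebpa show no overlap between the 3 groups on this scale, which for Irf8 in NHD13/MSI2 over NHD13 rests on the TMM factors. Replicate 4 of NHD13/MSI2 lies far from replicates 1 to 3 for Spi1, Cebpg and Cebpb.

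The Irf8 level, scaled by TMM as all CPM below, was 49.5, 32.8 and 27.5 CPM in control replicates 1 to 3, 142 and 254 CPM in NHD13, and 445, 488, 618 and 263 CPM in NHD13/MSI2. On this scale the groups did not overlap: each NHD13 library lay above each control library, and each NHD13/MSI2 library above both NHD13 libraries. Replicate 4 of NHD13/MSI2 lay only just above NHD13 replicate 2, an order that rests on their TMM factors (0.785 and 1.05). Before that scaling replicate 4 had the smaller share, 4047 of 19625590 counts against 5148 of 19242153 in NHD13 replicate 2. Group means were 36.6 ± 11.5 CPM (SD, n = 3), 198 ± 79.6 CPM (n = 2) and 453 ± 147 CPM (n = 4). These levels came from 687 to 1211 counts in control and from 4047 to 13661 counts in NHD13/MSI2, so that counting error is small beside the spread between libraries. Irf8 was 12.4-fold higher in NHD13/MSI2 than in control, a log2 fold change of 3.63 (standard error 0.38, 95% interval 2.79 to 4.47, adjusted p = 0.000268). It passed the threshold in each of 18 alternative analyses. Irf8 in NHD13 over control had a log2 fold change of 2.44 (standard error 0.39, interval 1.56 to 3.31, adjusted p = 0.0115), just outside the threshold. Without NHD13/MSI2 replicate 4 in the fit Irf8 passed in the same comparison (adjusted p = 0.00345), where calls over all genes rose from 138 to 251. The lowest adjusted p of Irf8 over the 18 alternatives of NHD13 over control was 4.38e-07 (DESeq2). The highest was 0.0721 (without NHD13 replicate 2). In NHD13/MSI2 over NHD13 the log2 fold change of Irf8 was 1.19 (standard error 0.39, interval 0.32 to 2.07, adjusted p = 0.0994), which did not pass.

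The Cebpa level was 3.72, 4.46 and 2.60 CPM in control, 6.39 and 8.05 CPM in NHD13, and 18.7, 19.7, 10.7 and 15.7 CPM in NHD13/MSI2. The 3 groups did not overlap here either, and replicate 4 of NHD13/MSI2, which stood apart for other factors, lay within the range of replicates 1 to 3. Group means were 3.59 ± 0.937 CPM (SD, n = 3), 7.22 ± 1.17 CPM (n = 2) and 16.2 ± 4.04 CPM (n = 4), from 65 to 94, 139 to 163 and 237 to 396 counts. Cebpa was 4.51-fold higher in NHD13/MSI2 than in control (log2 fold change 2.17, standard error 0.31, 95% interval 1.47 to 2.87, adjusted p = 0.00136), and it passed in each of 18 alternatives, with log2 fold changes of 1.98 to 2.36 when any library was left out. Cebpa in NHD13/MSI2 was 2.24-fold higher than in NHD13, with a log2 fold change of 1.17 (standard error 0.34, interval 0.39 to 1.94) that missed the threshold (adjusted p = 0.0714, and 0.00759 to 0.33 over the alternatives). In NHD13 over control the log2 fold change of Cebpa was 1.01 (standard error 0.34, adjusted p = 0.207).

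In sorted bulk RNA, more cells of a type that expresses a factor and more RNA of that factor per cell cannot be told apart. The summed level of 8 monocyte and macrophage markers in the table was ordered like Irf8 and Cebpa, at 71.6 to 125 CPM in control, 2609 to 3288 CPM in NHD13 and 6231 to 8554 CPM in NHD13/MSI2. In both comparisons over control 3 of these 8 markers rose, F13a1, Csf1r and Cd68. Of all genes tested, 11.0% passed in NHD13/MSI2 over control and 1.03% in NHD13 over control, in either direction. None of the 8 was at 0 in every library of a group. F13a1 alone made up most of that sum outside control (mean 31.1 CPM in control, 2608 CPM in NHD13 and 6713 CPM in NHD13/MSI2). Ccr2, the receptor that brings monocytes out of the marrow, had 13.1, 93.0 and 84.1 CPM, and Vcan and Cd14 had lower means in NHD13/MSI2 (0.318 and 0.253 CPM) than in control (1.07 and 0.561 CPM). These 2 means rest on few counts with overlapping ranges. Vcan had 1 to 15 counts in NHD13/MSI2 and 2 to 47 in control, and Cd14 had 1 to 13 and 4 to 23. The neutrophil markers had a summed level of 884 to 2412 CPM in control, 140 to 527 CPM in NHD13 and 232 to 663 CPM in NHD13/MSI2, with Ngp as the largest part. The sum of the dendritic cell markers (593 to 679, 138 to 453 and 117 to 226 CPM) was nearly all Flt3 (581 to 674, 133 to 445 and 104 to 206 CPM), which early progenitors also express. Of the others Itgax had means of 2.08, 3.19 and 3.47 CPM and Zbtb46, a defining factor of classical dendritic cells, 0.743, 0.247 and 0.0113 CPM. Zbtb46 had only 2 to 27 counts in control, 0 to 10 in NHD13 and 0 to 1 in NHD13/MSI2. The part of these cell types in the levels of the factors was not tested.

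Irf8 lies on the plus strand at chr8:120736358-120756694 and Cebpa, whose transcript has a single exon, on the plus strand at chr7:35119293-35121928 (GRCm38, GENCODE M21). Their promoters are shown because these were the factors that passed, and their TMM-scaled levels were ordered control, NHD13, NHD13/MSI2 without overlap. The sequences are the 250 bases before the RefSeq start (GRCm38.p6), at chr7:35119043-35119292 for Cebpa and chr8:120736108-120736357 for Irf8, both on the plus strand, and capitals mark matches on either strand to CCAAT, TTNNGCAA (a C/EBP element), GAGGAA (the core bound by PU.1), TTCNNNGAA (the STAT element) or TATAAA.
Cebpa promoter: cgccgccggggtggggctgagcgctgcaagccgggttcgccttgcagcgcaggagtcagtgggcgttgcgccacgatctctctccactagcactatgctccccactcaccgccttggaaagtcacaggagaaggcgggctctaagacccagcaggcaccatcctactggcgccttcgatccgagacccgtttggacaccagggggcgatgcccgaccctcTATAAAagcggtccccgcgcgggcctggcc
Irf8 promoter: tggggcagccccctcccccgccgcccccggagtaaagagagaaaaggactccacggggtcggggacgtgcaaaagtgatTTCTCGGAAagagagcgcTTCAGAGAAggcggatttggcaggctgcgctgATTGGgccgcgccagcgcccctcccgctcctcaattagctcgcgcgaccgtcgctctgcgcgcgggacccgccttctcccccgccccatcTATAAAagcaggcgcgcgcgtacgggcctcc
Both hold TATAAA close to the start, with its first base at position −30 in Cebpa and −31 in Irf8, counted back from the start, a motif found in 12.4% of 32851 RefSeq promoters of the same length. Irf8 also holds TTCNNNGAA at −171 and −153 (7.02% of promoters hold it at least once) and CCAAT at −121 on the reverse strand (33.8%). TTNNGCAA (9.56%) and GAGGAA (23.3%) had no match in either stretch. A second RefSeq start of Irf8, with its 250 bases at chr8:120738389-120738638, had no match to any of the 5 motifs. RefSeq promoters were found for 6 of the 9 factors, and not for Spi1, Cebpd and Cebpe.

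Whether Spi1 passed depended on a single library. Its level was 17.9, 22.1 and 21.1 CPM in control, 31.2 and 42.8 CPM in NHD13, and 78.3, 78.7, 62.8 and 13.1 CPM in NHD13/MSI2. Replicates 1 to 3 of NHD13/MSI2 lay above all libraries of the other groups, whereas replicate 4, with 202 counts, lay below all of them. Its Spi1 level was 5.59-fold lower than the mean of replicates 1 to 3, 73.3 ± 9.11 CPM (SD, n = 3). With all 9 libraries the log2 fold change of Spi1 was 1.52 in NHD13/MSI2 over control (standard error 0.50, 95% interval 0.38 to 2.65, adjusted p = 0.0622) and 0.66 in NHD13/MSI2 over NHD13 (standard error 0.56, adjusted p = 0.563), and neither passed. Without replicate 4 both passed, at a log2 fold change of 1.85 over control (adjusted p = 0.000154) and of 1.00 over NHD13 (adjusted p = 0.00978, just inside the threshold). Calls over all genes rose as well without it, from 1474 to 2066 over control and from 423 to 646 over NHD13. Over all alternatives the adjusted p of Spi1 ran from 0.000154 to 0.211 and from 0.00978 to 0.842. In NHD13 over control it was 1.82-fold higher (log2 fold change 0.86, standard error 0.57, adjusted p = 0.628), and the groups did not overlap. Spi1 (chr2:91082390-91115756, plus strand) is the only factor whose row name had to be moved. Under the names as deposited, the row called Spi1 would give 670, 545 and 618 counts in control in place of 438, 466 and 528.

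**Figure D2:**
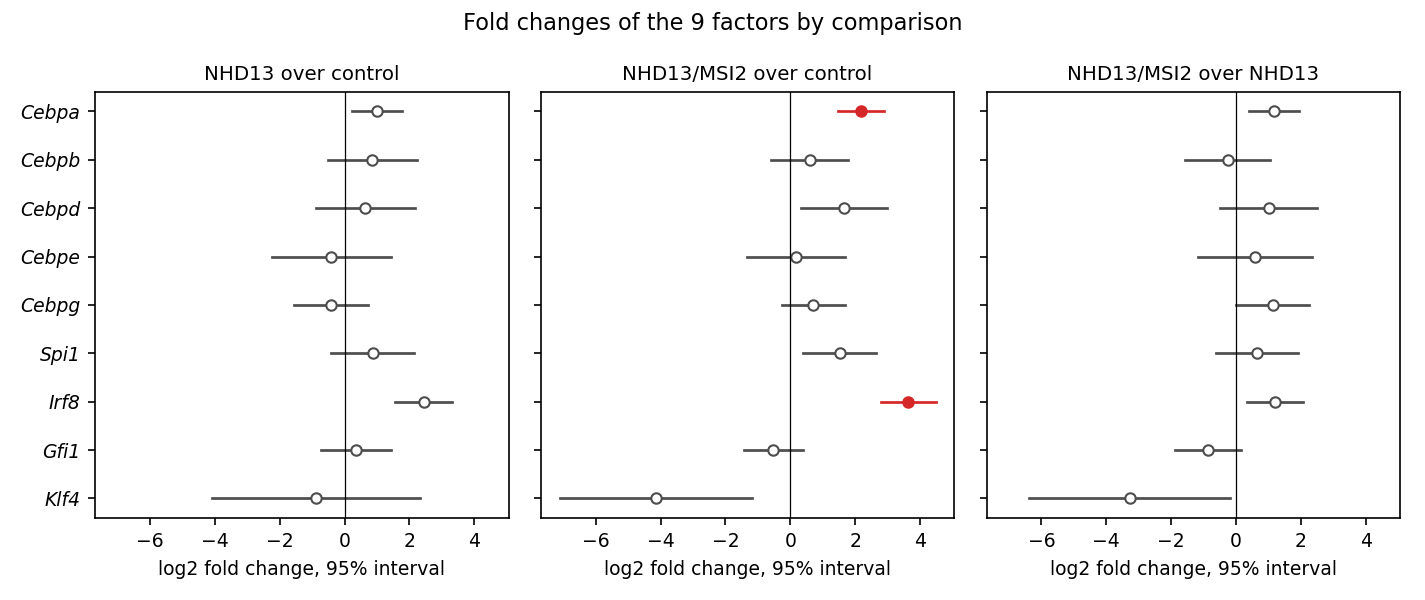
Log2 fold change of each factor with its 95% interval from edgeR's quasi-likelihood fit over 9 libraries, in the 3 comparisons. Filled red points passed an adjusted p of 0.01, which only Cebpa and Irf8 in NHD13/MSI2 over control did, and the intervals of Klf4 are the widest of the 9.

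The other C/EBP genes passed in no comparison. Cebpg, which encodes the partner without a strong activation domain, was the most abundant of the family, at 69.3, 58.0 and 58.7 CPM in control, 51.6 and 41.3 CPM in NHD13, and 57.8, 63.6, 73.5 and 211 CPM in NHD13/MSI2. Both NHD13 libraries lay below the control libraries and below those of NHD13/MSI2, and replicate 4 was 3.24-fold above the mean of replicates 1 to 3. Relative to NHD13, the log2 fold change of Cebpg in NHD13/MSI2 came to 1.13 ± 0.50 (standard error, adjusted p = 0.233), and without replicate 4 it was 0.50 (adjusted p = 0.0726). Over control it was 0.71 (adjusted p = 0.29) and 0.077 without that replicate. Cebpg lies on the minus strand at chr7:35046422-35056573, upstream of Cebpa on the same chromosome.

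Cebpb, which drives macrophage genes and emergency granulopoiesis, had 1.35, 1.14 and 1.12 CPM in control, 2.39 and 1.98 CPM in NHD13, and 1.24, 1.35, 1.18 and 3.57 CPM in NHD13/MSI2, from 24 to 55 counts a library. NHD13 lay above control, replicates 1 to 3 of NHD13/MSI2 lay among the control libraries, and replicate 4 was the highest of all 9. Its log2 fold changes were 0.86 in NHD13 over control (adjusted p = 0.665), 0.60 in NHD13/MSI2 over control (adjusted p = 0.478) and −0.26 in NHD13/MSI2 over NHD13 (adjusted p = 0.853), and without replicate 4 the last was −0.78.

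Cebpd, an inflammation-responsive member, had the lowest mean per kilobase of the factors in control and NHD13, where its range overlapped that of Klf4. It stood at 0.450, 0.332 and 0.480 CPM in control, 0.920 and 0.395 CPM in NHD13, and 1.29, 1.80, 0.769 and 1.49 CPM in NHD13/MSI2. NHD13/MSI2 lay above control in all 4 libraries, on 17 to 36 counts against 7 to 12, with a log2 fold change of 1.65 (standard error 0.59, 95% interval 0.32 to 2.98, adjusted p = 0.0803). The gene bodies of Cebpb and Cebpd overlap Tmem189 and Spidr on the opposite strand, and the sources do not state whether strand was used in counting, so reads of these partners cannot be told apart from theirs. Other factors overlap annotated genes that the count table does not hold. Irf8 lies within Gm20388 on the same strand, and Cebpa overlaps Gm45091 and Gfi1 overlaps A430072P03Rik on the opposite strand. Cebpg overlaps Gm44836 and Gm45094 on its own strand and Gm45095 on the other.

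Cebpe, the factor of secondary granule genes, had 1.55, 3.75 and 2.00 CPM in control, 2.81 and 0.840 CPM in NHD13, and 2.22, 5.24, 2.67 and 0.779 CPM in NHD13/MSI2. The 3 groups overlapped throughout, and the sign of its log2 fold change over control (0.17 in NHD13/MSI2, −0.41 in NHD13) depended on single libraries. Its 95% interval in NHD13/MSI2 over control ran from −1.34 to 1.68 (adjusted p = 0.895), which leaves room for a change in either direction.

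The share of Cebpa within the family, per kilobase of merged exons, differed between the libraries. Of the summed CPM per kb of the 5 genes, Cebpa made up 8.82%, 10.7% and 7.09% in control, 15.5% and 24.4% in NHD13, and 34.9%, 30.7%, 20.1% and 12.7% in NHD13/MSI2. Replicates 1 and 2 of NHD13/MSI2 had the highest shares and replicate 4 lay below both NHD13 libraries, as its Cebpg share was 80.0% where Cebpg made up 50.6%, 46.4% and 64.5% in replicates 1 to 3. The Cebpg share was 77.0%, 65.0% and 75.0% in control and 58.4% and 58.8% in NHD13. Cebpe per read of Cebpa gave count ratios of 0.418 to 0.84 in control, 0.439 and 0.104 in NHD13, and 0.119, 0.265, 0.249 and 0.0496 in NHD13/MSI2, so that all 4 NHD13/MSI2 libraries lay below all control libraries while NHD13 lay in both ranges.

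**Figure D3:**
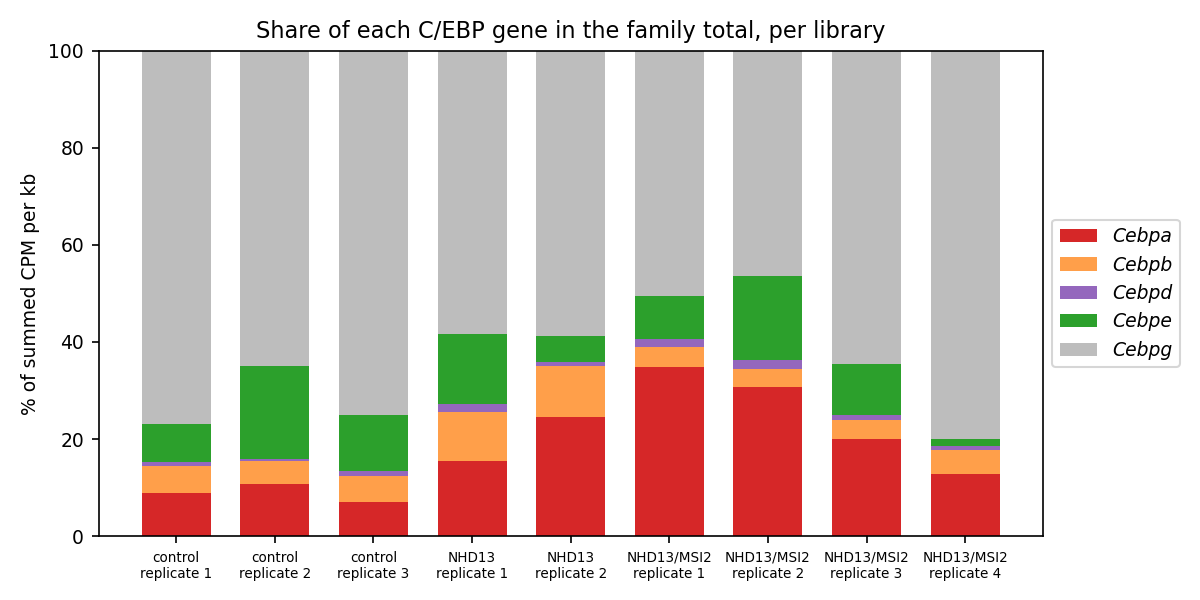
Stacked bars of the share of each C/EBP gene in the summed CPM per kb of the 5 genes, for each of the 9 libraries. The red Cebpa segment is 7.09% to 10.7% in control and reaches 34.9% in NHD13/MSI2 replicate 1, and the grey Cebpg segment is the tallest in each of the 9 libraries, from 46.4% to 80.0%.

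Gfi1, the repressor of monocyte genes in granulocyte progenitors, had 4.09, 4.56 and 4.84 CPM in control, 2.81 and 8.60 CPM in NHD13, and 2.95, 2.74, 2.62 and 4.15 CPM in NHD13/MSI2. Both NHD13 libraries lay outside the control range, on opposite sides, and replicates 1 to 3 of NHD13/MSI2 lay below control. Its log2 fold change was −0.53 in NHD13/MSI2 over control (standard error 0.40, interval −1.44 to 0.38, adjusted p = 0.41) and −0.87 in NHD13/MSI2 over NHD13 (standard error 0.45, adjusted p = 0.303), and without NHD13 replicate 2 the latter was 0.19. Irf8 and Gfi1 favour different branches, and their count ratio within a library does not depend on scaling. Irf8 to Gfi1 was 12.1, 7.21 and 5.68 in control, 50.5 and 29.6 in NHD13, and 151, 178, 236 and 63.2 in NHD13/MSI2, with no overlap between the 3 groups. Cebpa to Spi1 was 0.123 to 0.208 in control, 0.205 and 0.188 in NHD13, and 0.238, 0.251 and 0.171 in replicates 1 to 3 of NHD13/MSI2 against 1.20 in replicate 4. These ratios are descriptions of each library and were not tested.

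Klf4 varied most between libraries of a group, at 11.0, 0.285 and 2.16 CPM in control, 4.74 and 0.148 CPM in NHD13, and 0.0517, 0.299, 0.317 and 0.325 CPM in NHD13/MSI2. The 4 NHD13/MSI2 libraries had 1 to 7 counts each and lay near control replicate 2 (6 counts) and NHD13 replicate 2 (3 counts), while control replicate 1 had 269 counts. The log2 fold change of Klf4 in NHD13/MSI2 over control was −4.15 (standard error 1.32, 95% interval −7.11 to −1.19, adjusted p = 0.0532), and without control replicate 1 it was −2.28. DESeq2 called it in this comparison (adjusted p = 0.00342, where 18.1% of all genes were called), and over all alternatives its adjusted p ran up to 0.295. Against NHD13 the log2 fold change of Klf4 was −3.28 (adjusted p = 0.202), and without NHD13 replicate 1 it was 0.74.

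Per kilobase of merged exons, the order of levels changed between the groups. In control it was Cebpg (11.0 CPM per kb), Spi1 (7.56), Irf8 (5.19), Cebpe (1.96), Klf4 (1.47), Gfi1 (1.41), Cebpa (1.36), Cebpb (0.800) and Cebpd (0.112). The libraries of Spi1 and Irf8 overlapped, as did those of Cebpe, Klf4, Gfi1 and Cebpa. Klf4 (0.0934 to 3.61 CPM per kb) also spanned Cebpb and reached into the range of Cebpd (0.0887 to 0.128). In NHD13 it was Irf8 (28.1 CPM per kb), Spi1 (13.7), Cebpg (8.26), Cebpa (2.74), Gfi1 (1.79), Cebpe (1.47), Cebpb (1.45), Klf4 (0.801) and Cebpd (0.176), where Irf8, Spi1, Cebpg and Cebpa did not overlap and the neighbours from Cebpa down to Cebpd did. In NHD13/MSI2 it was Irf8 (64.3 CPM per kb), Spi1 (21.6), Cebpg (18.0), Cebpa (6.15), Cebpe (2.20), Cebpb (1.22), Gfi1 (0.978), Cebpd (0.357) and Klf4 (0.0814), where Spi1 (4.86 to 29.2), Cebpg (10.3 to 37.5) and Cebpa (4.07 to 7.49) overlapped with their neighbours through replicate 4 or through the spread of the group. Irf8 thus stood below Cebpg and Spi1 in control and had the highest mean in the other groups, and there its lowest libraries (20.1 CPM per kb in NHD13 and 37.2 in NHD13/MSI2) lay above the highest of Spi1 (15.9 and 29.2). The highest Cebpg library of NHD13/MSI2, replicate 4 at 37.5 CPM per kb, lay just above Irf8 in that same library. With the longest transcript as the length, Irf8 stood above Spi1 in control as well, at 10.6 against 10.0 CPM per kb.

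The target genes of these factors were described by lists chosen from textbook knowledge, with earlier results of these data known. Of all genes tested, 11.0% passed in NHD13/MSI2 over control (4.49% higher), 1.03% in NHD13 over control and 3.17% in NHD13/MSI2 over NHD13. Without NHD13/MSI2 replicate 4, calls over all genes rose as well, to 2066, 251 and 646 from 1474, 138 and 423. These shares and counts stand beside all target lists below. Among 14 tested monocyte and dendritic genes, 5 rose and none fell in NHD13/MSI2 over control, 4 rose and none fell in NHD13 over control, and 1 rose in NHD13/MSI2 over NHD13, with median log2 fold changes of 2.00, 1.50 and 0.67 (without NHD13/MSI2 replicate 4, 6, 5 and 2 rose). F13a1, the coagulation factor XIII chain of monocytes, had a mean level of 31.1 CPM in control, 2608 CPM in NHD13 and 6713 CPM in NHD13/MSI2, a log2 fold change of 6.39 in NHD13 over control (standard error 0.34, adjusted p = 3.12e-05) and 7.75 in NHD13/MSI2 over control (standard error 0.35, adjusted p = 4.56e-06). Ly86 (MD-1, a partner of RP105) had 4.24, 198 and 304 CPM and rose by 5.54 and 6.16 on the log2 scale in the same comparisons. Cd68, a lysosomal protein of macrophages, rose by 1.97 and 3.11. Ctss, cathepsin S, rose by 1.87 in NHD13 over control. Itgam (CD11b), an integrin chain and PU.1 target, had 45.3, 99.0 and 415 CPM and rose in NHD13/MSI2 over control (3.20, standard error 0.26) and over NHD13 (2.07, standard error 0.29, adjusted p = 0.00351). The call of Itgam over NHD13 was lost without replicate 1 of control, NHD13 or NHD13/MSI2 in turn (adjusted p of 0.0103 to 0.0116), and that of Cd68 in NHD13 over control without replicate 1 or 3 of control or replicate 1 of NHD13 (0.0115 to 0.0142).

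Among the 8 growth factor and pattern receptors, 3 rose and 2 fell in NHD13/MSI2 over control, 1 rose in NHD13 over control (1 rose and 1 fell without NHD13/MSI2 replicate 4) and 2 rose in NHD13/MSI2 over NHD13. Csf1r, the M-CSF receptor and a direct target of PU.1, had 15.5, 9.02 and 9.20 CPM in control, 122 and 94.9 CPM in NHD13, and 309, 359, 473 and 281 CPM in NHD13/MSI2. The 3 groups did not overlap, and Csf1r rose in each comparison, by 3.27 in NHD13 over control (adjusted p = 0.000711), by 4.98 in NHD13/MSI2 over control (adjusted p = 2.07e-05) and by 1.71 in NHD13/MSI2 over NHD13 (standard error 0.30, adjusted p = 0.00927). The last of these calls held without NHD13/MSI2 replicate 4 and was lost when any of the other 8 libraries was left out (adjusted p of 0.0103 to 0.0598). Csf3r, the G-CSF receptor and a C/EBPα target, had 194, 104 and 278 CPM in control, NHD13 and NHD13/MSI2 and rose by 1.43 over NHD13 (standard error 0.19, adjusted p = 0.00336), a call lost without control replicate 2 or either NHD13 library (0.0102 to 0.0366). Il6ra, an IL-6 receptor chain, rose by 2.14 over control. Tlr4 fell by 2.23 and Flt3, a receptor of lymphoid-primed progenitors, fell by 2.01 in NHD13/MSI2 over control on the log2 scale. The Flt3 call was lost without each control library in turn and without NHD13/MSI2 replicate 1 or 2 (adjusted p of 0.017 to 0.0211).

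Among the 9 primary granule genes tested, 2 rose and 2 fell in NHD13/MSI2 over control (3 and 2 without replicate 4), 1 fell in NHD13 over control and 1 fell in NHD13/MSI2 over NHD13. Mpo, myeloperoxidase, had 1549, 3383 and 10791 CPM and rose by 2.80 over control (standard error 0.29, adjusted p = 0.000254), and Hk3, a hexokinase of myeloid cells, rose by 2.08. Nkg7, a granule protein also of natural killer cells, fell by 3.22 and by 2.81 on the log2 scale in NHD13/MSI2 and NHD13 over control, and Cst7, cystatin F, fell by 1.93 over control and by 2.95 over NHD13 in NHD13/MSI2. Leaving out a library ended the call of Nkg7 in NHD13 over control (control replicate 1 or either NHD13 library, adjusted p of 0.0118 to 0.0276). It also ended those of Cst7 over control (each control library and NHD13/MSI2 replicates 1 and 2, 0.0114 to 0.0305) and over NHD13 (either NHD13 library and NHD13/MSI2 replicate 2, 0.0114 to 0.0156). Elane, neutrophil elastase, had a mean level of 143 CPM in control, 79.1 CPM in NHD13 and 109 CPM in NHD13/MSI2 and passed in no comparison. None of the 11 secondary granule genes passed edgeR's test in any comparison, although 6 had an unadjusted p under 0.05 in each comparison over control and 1 in NHD13/MSI2 over NHD13, and DESeq2 called 2 lower in each comparison over control and 0 in the other. Over control they had median log2 fold changes of −1.68 in NHD13/MSI2 and −1.91 in NHD13. Within this list Ltf, lactoferrin, had 231 ± 114 CPM (SD, n = 3) in control, 35.9 ± 26.4 CPM (n = 2) in NHD13 and 62.6 ± 33.3 CPM (n = 4) in NHD13/MSI2 (log2 fold change −1.88 over control, adjusted p = 0.0378). Elane and Ltf were chosen after their values were seen.

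**Figure D4:**
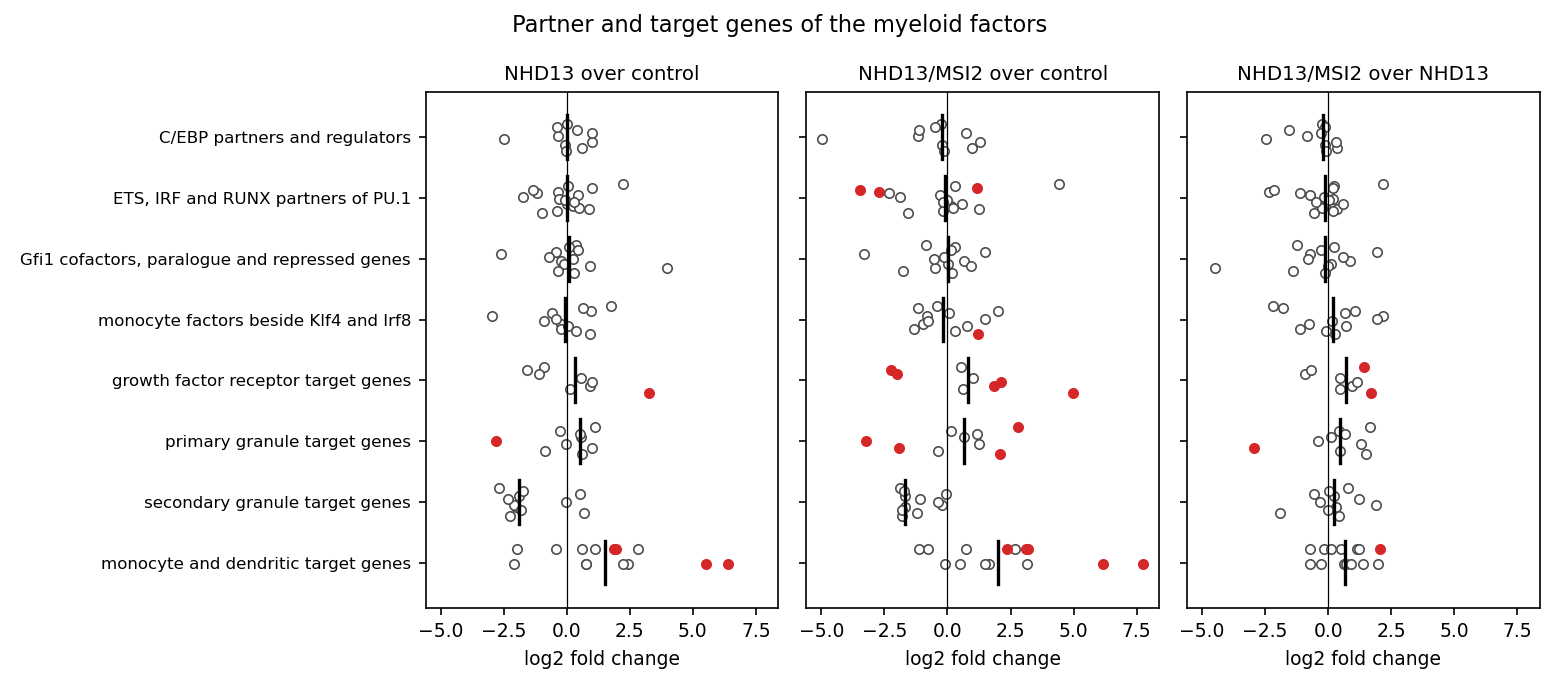
Log2 fold change of each tested gene of the partner and target lists in the 3 comparisons, with filled red points for genes past an adjusted p of 0.01 and a black bar at the median of each list. The monocyte and dendritic genes have medians of 1.50 and 2.00 over control, while the secondary granule genes have medians of −1.91 and −1.68 with no gene past the threshold.

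Partner genes were described in the same way, where 11.0% of all genes tested passed in NHD13/MSI2 over control, 1.03% for NHD13 against control and 3.17% for NHD13/MSI2 against NHD13. Without NHD13/MSI2 replicate 4, 2066, 251 and 646 of all genes passed in these comparisons, against 1474, 138 and 423 with it. None of the 10 tested dimer partners and regulators of C/EBP proteins and none of the 13 tested cofactors and repressed genes of GFI1 passed edgeR's test in any comparison, with 0 to 4 and 2 to 5 genes at an unadjusted p under 0.05, while DESeq2 called 0 to 1 and 0 to 2. Of 17 ETS, IRF and RUNX partners of PU.1, 3 passed in NHD13/MSI2 over control. Runx1, which acts with PU.1 and C/EBPα at myeloid enhancers, rose by 1.17 (standard error 0.18, adjusted p = 0.00169), whereas Gata1, the erythroid and megakaryocyte factor that antagonizes PU.1, fell by 3.48 (standard error 0.67, adjusted p = 0.00594) and Ets2 fell by 2.71 on the log2 scale. Of 12 other monocyte factors Zeb2 rose, by 1.21 (standard error 0.22, adjusted p = 0.00409). These 4 calls were lost without each control library in turn, and all but that of Runx1 also without NHD13/MSI2 replicate 1 and some of replicates 2 and 3. Adjusted p values were then 0.01 to 0.0119 for Runx1, 0.0162 to 0.024 for Gata1, 0.0108 to 0.0155 for Ets2 and 0.0107 to 0.0245 for Zeb2. Without NHD13/MSI2 replicate 4, chosen after its values were seen, the partners of PU.1 had 1 gene higher in NHD13 over control and 1 lower in NHD13/MSI2 over NHD13, the other monocyte factors had 3 genes higher in NHD13/MSI2 over control and 2 in NHD13 over control, and the primary granule genes had 2 higher and 1 lower in NHD13/MSI2 over NHD13.

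By the root mean square difference of mean-centred log2 CPM over the 9 libraries, among 10965 genes with a mean of at least 50 counts, the patterns most like that of Cebpa were those of Siglecg (difference 0.25), Gpr160 (0.255) and Plekho1 (0.256), where Cebpa itself had an SD of 0.985. Siglecg had mean levels of 9.89, 21.2 and 48.8 CPM in control, NHD13 and NHD13/MSI2. Those most like Irf8, which had an SD of 1.63, were Tmem132a (0.261), Angptl2 (0.287) and Ctsh (0.337), and Ctsh, cathepsin H, had 12.8, 49.2 and 148 CPM.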

How the data were processed

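RNA of sorted LSKs was sequenced in 9 libraries, 3 control, 2 NHD13 and 4 NHD13/MSI2 and the replicate numbers are those of the labels. Raw read counts for each gene symbol, in whole numbers, were deposited by the authors without normalization or pooling, and the submitters' processing notes name STAR, HTSeq, DESeq and the build mm9. Versions, roles, annotation and strand setting are not given in the sources used here. Coordinates and gene lengths are from GENCODE M21 on GRCm38, not the authors' build.

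Names after the genes called 1-Mar to 11-Mar stood 2 rows too high, since 11 such names stand for 13 mouse genes, and 11942 names were moved down by 2 rows. With this move Xist had 21712 counts in control replicate 1 (0 with no move), and the median of 85 ribosomal protein names rose from 267.1 to 340.5 CPM. The 13 rows between stayed unnamed and were left out (0.0253% to 0.0323% of a library).

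Counts were filtered by filterByExpr, scaled by TMM and fitted with the quasi-likelihood method of edgeR 4.0.16 in R 4.3.3, with group as the factor, all 9 libraries in the fit and an adjusted p under 0.01 as the threshold. CPM are TMM-normalized and intervals have 95% confidence. The code was tested on simulated data. Alternatives were each library left out in turn, DESeq2 1.42.0, RLE factors, a threshold of 0.05, no filter, a filter at a mean of 50 counts, the robust option, the replicate number as a block, the groups compared alone, the names as deposited, CPM without TMM factors and the longest transcript as the length. The factors and lists were chosen with earlier results of these data known. Besides the factors, the genes named are at most 4 per list and comparison, those past the threshold with the largest log2 fold change and a mean of at least 50 counts, the 3 genes most like each called factor, and Xist, Kit and Ly6a. Msi2 and Hoxd13, as checks of the labels, and the single genes given beside a marker sum were added after their values were seen.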

Additional observations from a re-analysis of the deposited data

Results flagged for a closer look

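Of 37 genes checked, 5 had a library of NHD13/MSI2 whose gap to the nearest other library was larger than Dixon's 95% limit for 4 samples. Other genes named in the text were not checked, such as Msi2 (241 CPM in replicate 4 against 77.1 to 88.0 CPM in replicates 1 to 3). Chance flags about 1 in 20 groups, and over all 13355 genes tested the same limit was passed by 15.8%, with 72.3% of these in replicate 4. Replicate 4 was far above the others for Cebpb, at 3.57 CPM against 1.18 to 1.35, and for Cebpg, at 211 CPM against 57.8 to 73.5. Replicate 1 was far below the others for Klf4, at 0.0517 CPM (1 count) against 0.299 to 0.325, and for Hk3, at 276.5 CPM against 433 to 447. Replicate 3 was far above the others for Slamf1, a gene of the stem cell gate, at 1.86 CPM against 0.0499 to 0.155. The drop of Spi1 in replicate 4 to 13.1 CPM did not pass the limit, as replicates 1 to 3 were themselves spread from 62.8 to 78.7 CPM.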

How the results depend on the processing

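Cebpa and Irf8 passed in NHD13/MSI2 over control under all 18 alternatives. Among these, a threshold of 0.05 on the same fit cannot lose a call, and the names as deposited leave both rows unchanged. The number of the 9 factors that passed was 0 in NHD13/MSI2 over NHD13 but 1 by DESeq2, and 0 in NHD13 over control but 1 by DESeq2, with no filter on low counts, or at an adjusted p under 0.05. With a library left out it was 0 to 1 in both, 2 to 3 in NHD13/MSI2 over control and 1 to 3 in the joint test, and the factor gained without NHD13/MSI2 replicate 4 was Spi1, or Irf8 in NHD13 over control. Of 478 log2 fold changes of the factors under alternatives, 459 kept their side of the threshold and their sign, 9 passed newly and 10 changed sign, all of these last 10 with a library left out and at an adjusted p of 0.78 or more. With a library left out, these log2 fold changes ran as follows. Against NHD13, in NHD13/MSI2, Klf4 ran from −4.19 to 0.74 (without NHD13 replicate 1) and Gfi1 from −1.44 to 0.19 (without NHD13 replicate 2). In NHD13/MSI2 over control, Cebpe ran from −0.34 (without NHD13/MSI2 replicate 2, and −0.071 without control replicate 1) to 0.62. In NHD13 over control, Klf4 ran from −4.87 to 0.99 (without control replicate 1, and 0.056 without NHD13 replicate 2), Gfi1 from −0.69 (without NHD13 replicate 2) to 0.94, Cebpd from −0.090 (without NHD13 replicate 1) to 1.10 and Cebpe from −1.52 to 0.20 (without NHD13 replicate 2, and 0.038 without control replicate 2). Under the names as deposited Slamf1 (1.65 over NHD13), Tlr4 (0.73) and Mpo (−0.079) changed sign, since other rows then carry these names, and Spi1 had 26.0 CPM in control. Over all genes tested, 423 passed in NHD13/MSI2 over NHD13, but 1292 by DESeq2, 1177 at an adjusted p under 0.05, 203 with the block, 30 with only these groups in the fit and 128 to 646 with a library left out. In NHD13/MSI2 over control 1474 passed, but 2590 by DESeq2, 2745 at 0.05 and 647 to 2066 with a library left out. In NHD13 over control it was 138, but 602, 386, 83 with only these groups and 38 to 251, and in the joint test 1189, but 2636, 2472 and 440 to 1743. Libraries of different groups with the same replicate number had correlations of deviations of −0.072 to 0.194. Pairs with different numbers were not computed, so whether replicate numbers pair the samples was not tested. The replicate block gave 3 factors in NHD13/MSI2 over control and 0 in each of the other comparisons, adding Spi1 (1.85, adjusted p = 0.00073), as replicate 4 then has a term of its own. Depth limits Cebpb, Cebpd and Klf4, with libraries of 55, 36 and 7 counts or fewer in NHD13/MSI2. It also limits Cebpe (12 to 105 counts there) and Gfi1 (55 to 64 counts), and the ratios that use them.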

Other observations

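Markers of other lineages, listed to describe what the LSK gate held, moved as well. Beside the counts below, 11.0% of all genes tested passed in NHD13/MSI2 over control, 1.03% in NHD13 over control and 3.17% in NHD13/MSI2 over NHD13. The 8 erythroid markers in the table summed to 109 to 227 CPM in control, 13.1 to 42.7 CPM in NHD13 and 3.04 to 19.1 CPM in NHD13/MSI2, and 3 of the 6 tested fell in NHD13/MSI2 over control, among them Gata1 and Car1. Car1 (carbonic anhydrase 1), the largest part of the sum in control, had means of 120 CPM in control, 10.5 CPM in NHD13 and 3.50 CPM in NHD13/MSI2. Among megakaryocyte genes Itga2b (CD41) had 82.6, 131 and 10.3 CPM. Of the B cell markers Cd79a and Cd79b, chains of the B cell receptor, and the factor Pax5 rose in NHD13/MSI2 over control. Cd79a had means of 1.25, 18.8 and 184 CPM and Cd79b 47.2, 83.2 and 151 CPM, whereas Ebf1 had 1.52, 1.13 and 0.257 CPM. Among T cell markers Lck, the T cell kinase, rose by 2.22 in NHD13 over control on the log2 scale, at 41.3, 193 and 71.0 CPM, while Cd3e, Cd3d and Cd3g had 0 to 15 counts in every library. Of the mast cell and basophil markers Cpa3, mast cell carboxypeptidase, had 28.9, 6.36 and 2.49 CPM (log2 fold change −3.53 in NHD13/MSI2 over control), and 4 of the 8 were at 0 in every library of NHD13 and 4 in every library of NHD13/MSI2, Fcer1a, Cma1 and Tpsb2 in both. Gata2, which stem cells express as well, had 97.0, 120 and 85.3 CPM. Of the 6 genes used to describe LSKs, Slamf1, Flt3 and Cd34 fell in NHD13/MSI2 over control, while Ly6a (Sca1), which with Kit defines the gate, had higher levels there (85.8, 58.7 and 260 CPM) and did not pass (adjusted p = 0.0167). The calls of Slamf1, Flt3 and Cd34 over control were lost without each control library in turn and without NHD13/MSI2 replicate 1 or 2 (adjusted p of 0.0137 to 0.0234), that of Car1 when any library other than NHD13/MSI2 replicate 3 was left out (0.0104 to 0.0294), that of Cd79a without each control library in turn and without NHD13/MSI2 replicate 1, 2 or 3 (0.0106 to 0.0286), and that of Lck without control replicate 1 or 3 (0.01 and 0.0108).

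Cxcr2, a chemokine receptor of mature neutrophils, was the single neutrophil marker of 8 that passed, with mean levels of 3.89, 10.9 and 50.3 CPM in control, NHD13 and NHD13/MSI2 and a log2 fold change of 3.69 over control (standard error 0.43, adjusted p = 0.000466), while the median of the list was −1.70. It passed in each of 18 alternatives.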
